A study of Mus musculus with 4 samples.

Results

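The 41 genes described here encode enzymes of central carbon metabolism: 19 of glycolysis with its regulators and the lactate dehydrogenases, 4 of the pentose phosphate pathway, and 18 of the tricarboxylic acid (TCA) cycle with the entry of pyruvate into it. They were taken by gene symbol from a list, without use of their values, out of 15608 genes listed in either of 2 deposited RNA-seq tables. All 41 were listed in both tables. Messenger RNA was measured in cells from the periosteum, the sheath on the outside of bone, of wild-type male C57BL/6 mice aged 28 postnatal days. Cells that carried CD45 and Cx3cr1 were sorted into an ACE-positive and an ACE-negative fraction and, in the other table, into a CD74-positive and a CD74-negative fraction. ACE is angiotensin-converting enzyme and CD74 is the chaperone, or invariant chain, that guides MHC class II molecules. The series asks how expression differs between subsets of these macrophages. There was 1 library in each of the 4 groups, and the number of animals behind a library is not stated. No difference below therefore has a replicate check, and no test between groups was possible.

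Glycolysis breaks glucose down to pyruvate in the cytosol, and lactate dehydrogenase turns pyruvate into lactate. The pentose phosphate pathway branches off at glucose 6-phosphate, yields NADPH in its oxidative steps and, through transketolase and transaldolase, exchanges sugars with glycolysis. The TCA cycle in mitochondria oxidises the acetyl group that the pyruvate dehydrogenase complex makes from pyruvate. In macrophages, inflammatory stimulation is known to raise glycolysis and to alter the TCA cycle, and NADPH feeds the oxidative burst.

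The bases upstream of the start sites of 4 members are shown, because these genes had the largest ratios of their pathway in at least 1 of the sorts. They were chosen after their values were seen. Capitals mark the letters ACGTG or GCGTG, the core of the site that hypoxia-inducible factors are known to bind at many glycolytic genes, on either strand (CACGT and CACGC are the same letters on the other strand). Sequences are from RefSeq on GRCm38.p6, written 5′ to 3′ on the strand of the gene.
Pfkfb3 (chr2:11553973-11554002, minus strand): cctccgcgccgtgACGTGccaagctgtgac
Hk2 (chr6:82774455-82774704, minus strand): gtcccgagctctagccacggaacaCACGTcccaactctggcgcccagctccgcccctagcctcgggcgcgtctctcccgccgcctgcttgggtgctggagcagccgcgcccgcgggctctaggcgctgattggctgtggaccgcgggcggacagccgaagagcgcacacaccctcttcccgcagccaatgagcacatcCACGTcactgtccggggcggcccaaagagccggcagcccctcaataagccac
Taldo1 (chr7:141391910-141392159, plus strand): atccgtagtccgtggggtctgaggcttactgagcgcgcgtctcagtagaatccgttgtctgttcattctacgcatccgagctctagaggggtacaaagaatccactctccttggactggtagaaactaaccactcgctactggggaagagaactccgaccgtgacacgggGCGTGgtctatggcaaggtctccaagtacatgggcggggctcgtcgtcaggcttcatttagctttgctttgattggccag
Fh1 (chr1:175625636-175625885, minus strand): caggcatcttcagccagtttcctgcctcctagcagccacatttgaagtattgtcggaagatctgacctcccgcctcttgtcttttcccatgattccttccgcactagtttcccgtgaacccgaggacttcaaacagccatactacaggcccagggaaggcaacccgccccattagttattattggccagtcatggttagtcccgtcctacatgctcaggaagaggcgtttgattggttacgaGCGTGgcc
For Pfkfb3 30 bases are shown, because its window lies in an exon of another annotated transcript of the gene. For the other 3 genes 250 bases that end at the start site are shown. One or the other motif was present in the 250 bases upstream of 28 of the 40 members found in the RefSeq table (70.0%), against 58.2% of the 8017 genes in it that had a mean of at least 50 normalised reads in the ACE table and 38.6% of all its 27025 genes. The letters ACGTG alone were present for 11 of the 40 members (27.5%), against 22.8% of the 8017 genes. The GC content of these windows had a median of 59.4% for the members, 60.0% for the 8017 genes and 52.0% for all genes. A match of letters is a description and says nothing on binding.

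Values are normalised reads: reads on a gene divided by the size factor that the authors set for its library. A ratio is always positive over negative within 1 sort, and its log2 value is taken after adding 1 normalised read. Intervals in brackets are exact 95% intervals that cover counting error only. The libraries held 10944171 reads for ACE-positive, 12561196 for ACE-negative, 13282126 for CD74-positive and 7020232 for CD74-negative cells. The sorting markers were high where their labels say: Ace had 14202 normalised reads in ACE-positive cells, against 136 in ACE-negative cells, and Cd74 had 20882 in CD74-positive cells, against 4382 in CD74-negative cells. All 10 genes of a macrophage marker list were measured in every library, with 6 called higher and 1 called lower in the ACE sort, and 4 called higher in the CD74 sort. Their summed levels nevertheless were lower in the positive libraries. The sums were 173685 normalised reads in ACE-positive and 291589 in ACE-negative cells, and 146940 in CD74-positive and 212274 in CD74-negative cells. Other monocyte genes also moved with the sorts: 6 of 7 nonclassical monocyte genes were called higher in the ACE sort and 5 of 7 in the CD74 sort, while 3 of 6 and 0 of 6 classical monocyte genes were called lower. Genes of a neutrophil marker list were abundant in all 4 libraries as well, with summed levels of 149265 normalised reads in ACE-positive and 205391 in ACE-negative cells, and of 151419 in CD74-positive and 288106 in CD74-negative cells.

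Most of these enzyme genes stood lower in the positive library of both sorts, by less than 2-fold. Pfkfb3 and Hk2, both of early glycolysis, were called higher in 1 sort each. Pfkfb3, whose product makes the strongest activator of phosphofructokinase, was 2.37-fold higher [2.13 to 2.64] in ACE-positive cells, and Hk2, an inducible hexokinase, was 2.55-fold higher [2.27 to 2.88] in CD74-positive cells. A gene was called when its mean was at least 50 normalised reads, its interval excluded 1 and the log2 ratio reached 1 in size, which compares the libraries and not the conditions. Of 41 members, 40 passed the minimum in both tables; Aldoc, the aldolase of brain, did not. In the ACE sort 1 of the 40 was called higher (Pfkfb3), against 10.5% of all genes tested, and 5 were called lower (Pkm, Taldo1, Idh2, Suclg1 and Fh1), against 9.66% of all genes. In the CD74 sort 1 was called higher (Hk2), against 10% of all genes, and 3 were called lower (Ldha, Tkt and Taldo1), against 8.42%. The counts of called members lie near or below these shares. In bulk samples, fewer cells of a type and less RNA per cell cannot be told apart.

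The median log2 ratio was -0.53 for glycolysis, -0.76 for the pentose phosphate pathway and -0.37 for the TCA cycle in the ACE sort, against -0.08 for all 9895 genes tested. In the CD74 sort the medians were -0.59, -0.82 and -0.53 in the same order, against -0.03 for all 9674 genes tested. Of the 40 members, 35 lay below 0 in the ACE sort and 33 in the CD74 sort, against 54.6% and 51.3% of all genes. The whole interval lay below 1 for 30 members in the ACE sort, against 42.6% of all genes, and for 31 in the CD74 sort, against 38.5%. It lay above 1 for 5 members in the ACE sort, against 34.4% of all genes, and for 6 in the CD74 sort, against 36.8%. The 4 pentose phosphate genes had the lowest median in both sorts and all lay below 0, but with 4 genes their range, from -1.13 to -0.31 in the ACE sort, covers the medians of both other pathways. In the authors' deposited table the adjusted p-value was 1 for all 41 members in both sorts, and the smallest unadjusted p-values were 0.144 for Pfkfb3 in the ACE sort and 0.115 for Hk2 in the CD74 sort.

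**Figure D1:**
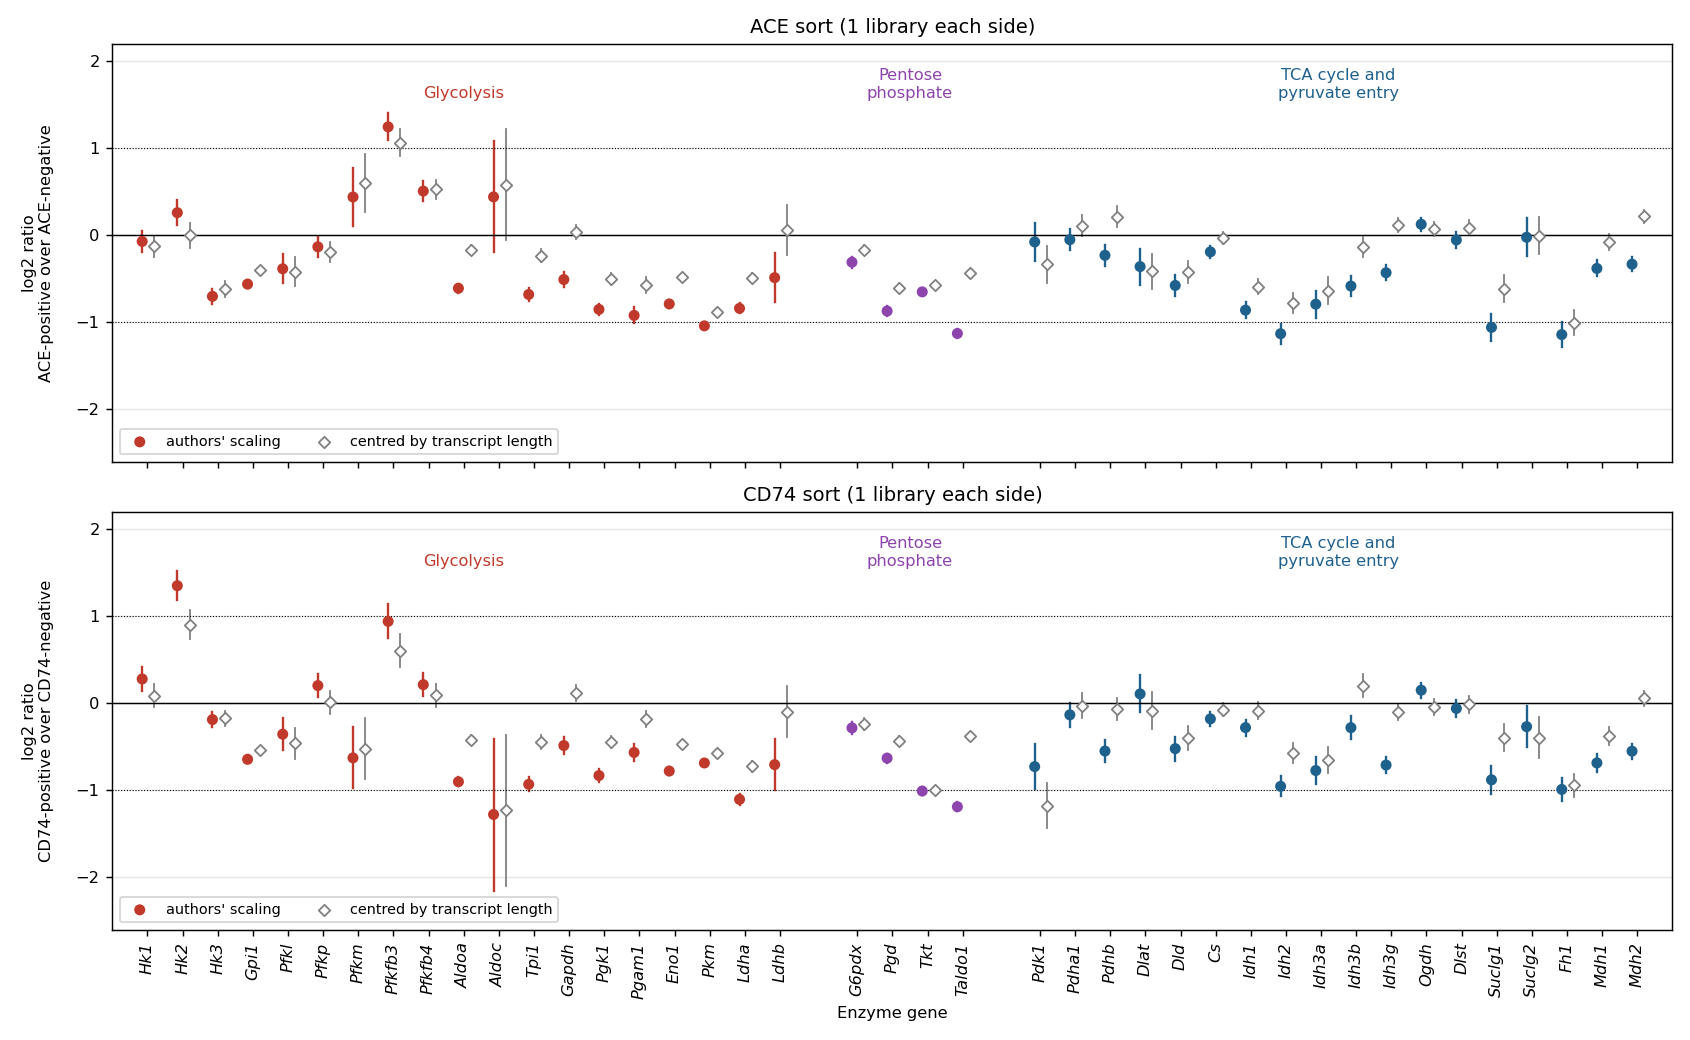
Log2 ratio of each of the 41 enzyme genes, positive over negative library, in the ACE sort (top) and the CD74 sort (bottom). Filled points, coloured by pathway, use the authors' scaling, open diamonds are centred by transcript length, bars are 95% counting intervals and dotted lines mark a log2 ratio of 1 in size. Most filled points lie below 0, Pfkfb3 (1.25 in the ACE sort) and Hk2 (1.35 in the CD74 sort) lie above, and centring moves many short genes of glycolysis and the TCA cycle toward 0.

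Ratios in both tables followed transcript length. Across all genes tested, the Spearman correlation of the log2 ratio with the length of the principal transcript was 0.46 in the ACE sort (9890 genes) and 0.60 in the CD74 sort (9669 genes), given as a description since all points share the same libraries. Among the 41 members it was 0.58 in both sorts. The shortest of 20 length classes had a median log2 ratio of -0.85 in the ACE sort and -1.04 in the CD74 sort, and the longest had 0.71 and 0.87. Each ratio was therefore also centred on the median of genes of like length. Centred, the medians were -0.21 for glycolysis, -0.50 for the pentose phosphate pathway and -0.10 for the TCA cycle in the ACE sort, and -0.30, -0.40 and -0.09 in the CD74 sort. The medians were still below 0, and 28 and 32 of the 40 members lay below 0 in the 2 sorts, against 50% of all genes in each. The centred interval lay below 1 for 25 members in the ACE sort, against 35.2% of all genes, and for 24 in the CD74 sort, against 33.6%. It lay above 1 for 6 members, against 36.4%, and for 4, against 33.2%. Centred, 1 member was called higher (Pfkfb3, against 9.99% of all genes) and 0 lower (against 4.96%) in the ACE sort. In the CD74 sort 0 were called higher (against 5.86%) and 1 lower (Pdk1, against 3.54%). How far the length trend is technical was not tested. The choice of scaling matters too: of all called genes in the ACE sort, 52.0% were higher as deposited, 66.7% on plain library totals, 62.3% on totals without the 50 most abundant genes, 66.8% after length centring and 64.9% when centred by the gene length in the deposited tables. In the CD74 sort the share was 54.3% as deposited, 73.8% on plain totals and 66% without the 50 most abundant genes.

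**Figure D2:**
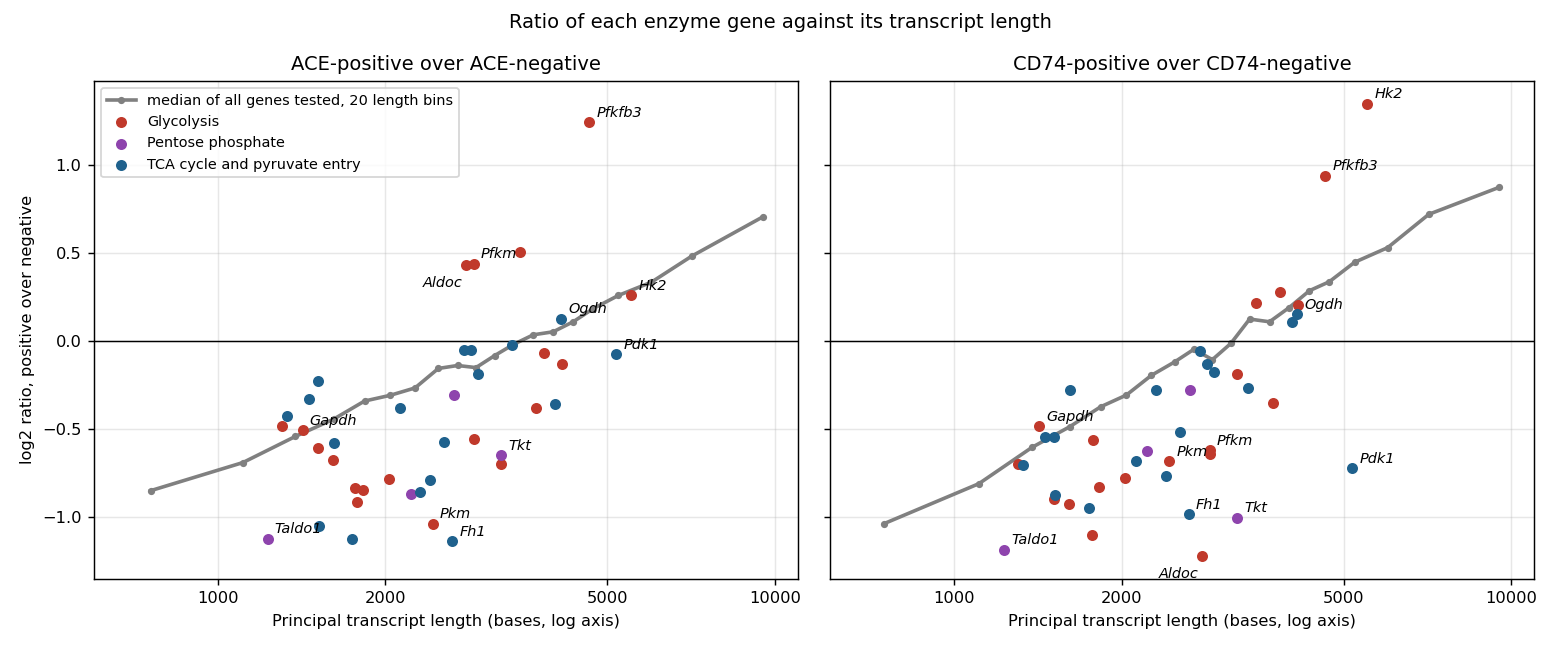
Log2 ratio, positive over negative, of each enzyme gene against the length of its principal transcript in bases (log axis), for the ACE sort (left) and the CD74 sort (right). The grey line is the median of all genes tested in 20 length classes; Taldo1, a short gene, lies below the line (-0.43 and -0.38 from it) and Gapdh near it, while Pfkfb3 lies above the line in both panels and Hk2 in the CD74 panel.

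Glucose enters glycolysis through the hexokinases, and the 3 measured forms differed. Hk2 (ENSMUSG00000000628, GRCm38 chromosome 6, 82725025 to 82774454) had 890 normalised reads in ACE-positive cells, against 743 in ACE-negative cells. In the other sort it had 1260 in CD74-positive cells, against 493 in CD74-negative cells. The positive library was thus the higher one in both sorts, with log2 ratios of 0.26 and 1.35, but the first of these became 0.00 after length centring and the second 0.90. Hk3, the hexokinase typical of myeloid cells, had 1626 normalised reads in ACE-positive and 2642 in ACE-negative cells, and 1965 in CD74-positive and 2235 in CD74-negative cells. Its log2 ratios were -0.70 and -0.19. Hk1, the widely expressed form bound to mitochondria, had log2 ratios of -0.07 and 0.28, and its sign changed with the scaling or centring in both sorts. Gpi1, which turns glucose 6-phosphate into fructose 6-phosphate, had log2 ratios of -0.56 and -0.64.

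The committed step is set by phosphofructokinase and by the PFKFB enzymes that make and degrade its activator fructose 2,6-bisphosphate. Pfkfb3 (ENSMUSG00000026773, chromosome 2, 11471433 to 11554077) had 1153 normalised reads in ACE-positive cells, against 486 in ACE-negative cells. It had 779 in CD74-positive cells, against 406 in CD74-negative cells, a fold of 1.92 [1.68 to 2.2] that lies just below the minimum for a call. Its log2 ratio in the ACE sort lay between 1.06 and 1.39 under all 9 settings of scaling, centring and pseudocount, and it was called under each of them. Pfkfb4, another enzyme of the same family, had 1594 normalised reads in ACE-positive and 1120 in ACE-negative cells, and 1149 in CD74-positive and 990 in CD74-negative cells. Its log2 ratios were 0.51 and 0.22 (0.53 and 0.09 after centring), so that neither was called. None of the phosphofructokinase genes was called: the liver form Pfkl had log2 ratios of -0.38 and -0.35, and the platelet form Pfkp of -0.13 and 0.20. The muscle form Pfkm had 182 normalised reads in ACE-positive and 134 in ACE-negative cells, but 115 in CD74-positive and 177 in CD74-negative cells. As background to these values, 5 of 10 genes of an immediate early and dissociation stress list were called higher in each sort, with summed levels of 230881 normalised reads in ACE-positive and 131541 in ACE-negative cells, and of 162026 in CD74-positive and 88031 in CD74-negative cells. The part of that list in the ratios of Pfkfb3 and Hk2 was not tested.

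Glycolysis was also split into earlier and later steps, which the written design did not hold. The later group ran from Aldoa to Ldha, without Aldoc and Ldhb. All 8 of its genes stood lower in the positive library of both sorts. Their log2 ratios lay between -1.04 and -0.51 in the ACE sort and between -1.10 and -0.48 in the CD74 sort, with medians of -0.81 and -0.80, and the interval of each lay below 1. Of the 2 genes left out, Ldhb had -0.48 and -0.70. Aldoc, which was below the minimum level, had 0.43 and -1.23. The 9 genes from hexokinase to the PFKFB enzymes had medians of -0.07 and 0.20, whose signs depend on the scaling or centring (0.07 in the ACE sort on plain totals and -0.12 in the CD74 sort when centred by deposited gene length). The later steps are also encoded by shorter transcripts, with a median length of 1771 bases against 3730 bases for the earlier ones, and after length centring the medians were -0.48 and -0.45 for the later steps and -0.12 and 0.01 for the earlier ones.

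Pkm, pyruvate kinase of most tissues other than liver and the member with the most reads, not divided by length (ENSMUSG00000032294, chromosome 9, 59656368 to 59679375), had 9915 normalised reads in ACE-positive cells, against 20379 in ACE-negative cells, and was 2.06-fold lower [2.01 to 2.11]. In the other sort it had 10438 in CD74-positive cells, against 16781 in CD74-negative cells, and was 1.61-fold lower [1.57 to 1.65]. After length centring its log2 ratios were -0.88 and -0.57, and its call in the ACE sort was lost. Ldha, the lactate dehydrogenase subunit that favours lactate formation (ENSMUSG00000063229, chromosome 7, 46841475 to 46855627), had 3926 normalised reads in ACE-positive cells, against 7020 in ACE-negative cells. It had 2964 in CD74-positive cells, against 6368 in CD74-negative cells, and was 2.15-fold lower [2.06 to 2.24] in that sort. Centred, its log2 ratios were -0.49 and -0.72, and neither was called. Eno1, the enolase of most tissues, had 7477 normalised reads in ACE-positive and 12904 in ACE-negative cells, and 6220 in CD74-positive and 10664 in CD74-negative cells, which gives log2 ratios of -0.79 and -0.78. The values for Aldoa (aldolase), Tpi1 (triosephosphate isomerase), Pgk1 (phosphoglycerate kinase) and Pgam1 (phosphoglycerate mutase) lay between -0.93 and -0.56. Gapdh, the glyceraldehyde 3-phosphate dehydrogenase often used as a reference gene, had 2105 normalised reads in ACE-positive and 2992 in ACE-negative cells, and 1637 in CD74-positive and 2290 in CD74-negative cells. Its log2 ratios of -0.51 and -0.48 became 0.04 and 0.12 after centring. Values of several of these genes are uncertain, since other annotated transcripts share at least 95% identity over much of the principal transcript: 88.0% of it for Gapdh (79 other genes, 77 of them pseudogenes), 85.6% for Eno1, 76.8% for Ldhb, 71.2% for Pdhb, 68.8% for Pgk1, 65.5% for Pkm, 56.6% for Ldha and 53.7% for Gpi1. Without the members that share more than 50% of their transcript, an alternative added after the data were seen, the median of glycolysis was -0.13 in the ACE sort and -0.19 in the CD74 sort. That leaves out Gapdh, Eno1, Pgk1, Pkm and Ldha of the later steps, so the genes kept are mostly of the earlier steps. The kept later genes Aldoa, Tpi1 and Pgam1 had log2 ratios of -0.61, -0.68 and -0.92 in the ACE sort and of -0.90, -0.93 and -0.56 in the CD74 sort. How the authors' counting treated such reads is not given in the sources used here.

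In the pentose phosphate pathway all 4 genes stood lower in both positive libraries in normalised reads, and transaldolase had the lowest ratio as deposited. Taldo1, transaldolase (ENSMUSG00000025503, chromosome 7, 141392199 to 141402968), had 5214 normalised reads in ACE-positive cells, against 11384 in ACE-negative cells. It had 4256 in CD74-positive cells, against 9694 in CD74-negative cells. It was 2.18-fold lower [2.11 to 2.26] and 2.28-fold lower [2.2 to 2.36], and was the 1 member called in both sorts. Its principal transcript of 1229 bases is the shortest of the 41, and centring brought its log2 ratios from -1.13 and -1.19 to -0.43 and -0.38. Tkt, transketolase (ENSMUSG00000021957, chromosome 14, 30548359 to 30574720), had 9593 normalised reads in ACE-positive and 15042 in ACE-negative cells. It had 6952 in CD74-positive cells, against 13972 in CD74-negative cells, and was 2.01-fold lower [1.95 to 2.07]. With a transcript of 3223 bases its values hardly moved with centring, from -0.65 and -1.01 to -0.57 and -0.99. Of the oxidative enzymes, Pgd, 6-phosphogluconate dehydrogenase, had log2 ratios of -0.87 and -0.63, below Tkt in the ACE sort and above it in the CD74 sort. G6pdx, glucose 6-phosphate dehydrogenase, which opens the pathway, had -0.31 and -0.28. G6pdx is thus the member of this pathway nearest to 0 in both sorts, also after centring (-0.17 and -0.23).

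The pyruvate dehydrogenase complex, which feeds the TCA cycle, held no called gene among its 4 members here. Pdha1 (E1 alpha) had 1096 normalised reads in ACE-positive and 1134 in ACE-negative cells, and 855 in CD74-positive and 937 in CD74-negative cells, and both intervals included 1. Pdhb (E1 beta) had log2 ratios of -0.23 and -0.55, Dlat (E2) of -0.36 and 0.11, and Dld (E3) of -0.57 and -0.52. After length centring Pdhb stood at 0.22 and -0.06, and Dlat at -0.41 and -0.08. Pdk1, the kinase that switches this complex off, had 355 normalised reads in ACE-positive cells, against 374 in ACE-negative cells. It had 201 in CD74-positive cells, against 332 in CD74-negative cells. Its transcript is long, at 5185 bases, and after centring its log2 ratios were -0.33 and -1.17, so that it was called lower in the CD74 sort on that scale and not as deposited, where it was -0.72.

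Within the TCA cycle 3 genes were called lower in the ACE sort and 0 in the CD74 sort. Fh1, fumarate hydratase (ENSMUSG00000026526, chromosome 1, 175600374 to 175625635), had 609 normalised reads in ACE-positive cells, against 1341 in ACE-negative cells. It had 646 in CD74-positive cells, against 1282 in CD74-negative cells. It was 2.2-fold lower [2.0 to 2.43] and 1.98-fold lower [1.81 to 2.18], and its log2 ratios of -1.14 and -0.99 were -1.0 and -0.94 after centring. These are the lowest TCA values in both sorts as deposited, next to those of Idh2, whose intervals overlap. Idh2, the mitochondrial NADP-dependent isocitrate dehydrogenase (ENSMUSG00000030541, chromosome 7, 80094846 to 80115392), had 902 normalised reads in ACE-positive and 1975 in ACE-negative cells, and 863 in CD74-positive and 1670 in CD74-negative cells. Suclg1, the alpha subunit of succinate-CoA ligase (ENSMUSG00000052738, chromosome 6, 73248382 to 73276911), had 509 normalised reads in ACE-positive and 1058 in ACE-negative cells, and 486 in CD74-positive and 893 in CD74-negative cells. Both were called lower in the ACE sort, with log2 ratios of -1.13 and -1.06, and lay at -0.95 and -0.88 in the CD74 sort. Neither was called after centring, when Idh2 stood at -0.78 and Suclg1 at -0.61 in the ACE sort.

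Of the 2-oxoglutarate dehydrogenase complex, E1 and E2 had values near 0, while Dld, the E3 that it shares with pyruvate dehydrogenase, had the -0.57 and -0.52 given above. Ogdh (its E1) had 2824 normalised reads in ACE-positive and 2585 in ACE-negative cells, and 2426 in CD74-positive and 2184 in CD74-negative cells. Dlst (its E2) had 2108 in ACE-positive and 2185 in ACE-negative cells, and 1766 in CD74-positive and 1839 in CD74-negative cells. The log2 ratios of Ogdh and Dlst lay between -0.06 and 0.15. The sign of both depended on the scaling or centring in the CD74 sort, as that of Dlst did in the ACE sort. Cs, citrate synthase, which starts the cycle, was near these with -0.19 and -0.18. The NAD-dependent isocitrate dehydrogenase has 3 subunits, and Idh3a, the catalytic one, had log2 ratios of -0.79 and -0.77. Idh3b (-0.58 and -0.28) and Idh3g (-0.43 and -0.71) encode the others and changed sign with length centring in at least 1 sort, whereas Idh3a stood at -0.63 and -0.65. The cytosolic Idh1 had log2 ratios of -0.86 and -0.28. The malate dehydrogenases Mdh1 (cytosolic) and Mdh2 (mitochondrial) had -0.38 and -0.33 in the ACE sort and -0.68 and -0.55 in the CD74 sort. After length centring Mdh2 changed sign in both sorts, to 0.22 and 0.06, while Mdh1 stood at -0.07 and -0.38. Suclg2, the GTP-specific beta subunit of succinate-CoA ligase, had -0.02 and -0.27.

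Levels were compared between genes per length, in TPM computed from the length of the principal transcript. Taldo1 and Pkm led in all 4 libraries: Taldo1 stood at 803 TPM in ACE-positive and 1339 TPM in ACE-negative cells, and at 843 TPM in CD74-positive and 1333 TPM in CD74-negative cells. Pkm stood at 771 TPM in ACE-positive, 1212 TPM in ACE-negative, 1044 TPM in CD74-positive and 1166 TPM in CD74-negative cells. Pkm was thus above Taldo1 in CD74-positive cells and below it in the other 3 libraries. Aldoc was lowest, at 3.53 TPM in ACE-positive, 1.99 TPM in ACE-negative, 1.37 TPM in CD74-positive and 2.31 TPM in CD74-negative cells. Summed over genes, glycolysis took 0.451% of the per-length signal in ACE-positive cells and 0.568% in ACE-negative cells, and 0.505% in CD74-positive and 0.574% in CD74-negative cells. The pentose phosphate pathway took 0.203% in ACE-positive and 0.282% in ACE-negative cells, and 0.220% in CD74-positive and 0.288% in CD74-negative cells. Within it G6pdx was higher in the positive libraries on this scale, unlike in normalised reads. It stood at 278 TPM in ACE-positive and 263 TPM in ACE-negative cells, and at 314 TPM in CD74-positive and 265 TPM in CD74-negative cells. The TCA cycle took 0.205% in ACE-positive and 0.214% in ACE-negative cells, and 0.220% in CD74-positive and 0.214% in CD74-negative cells. With 4 genes the pentose phosphate pathway thus held about as much signal as the 18 TCA genes in the positive libraries and more in the negative ones.

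**Figure D3:**
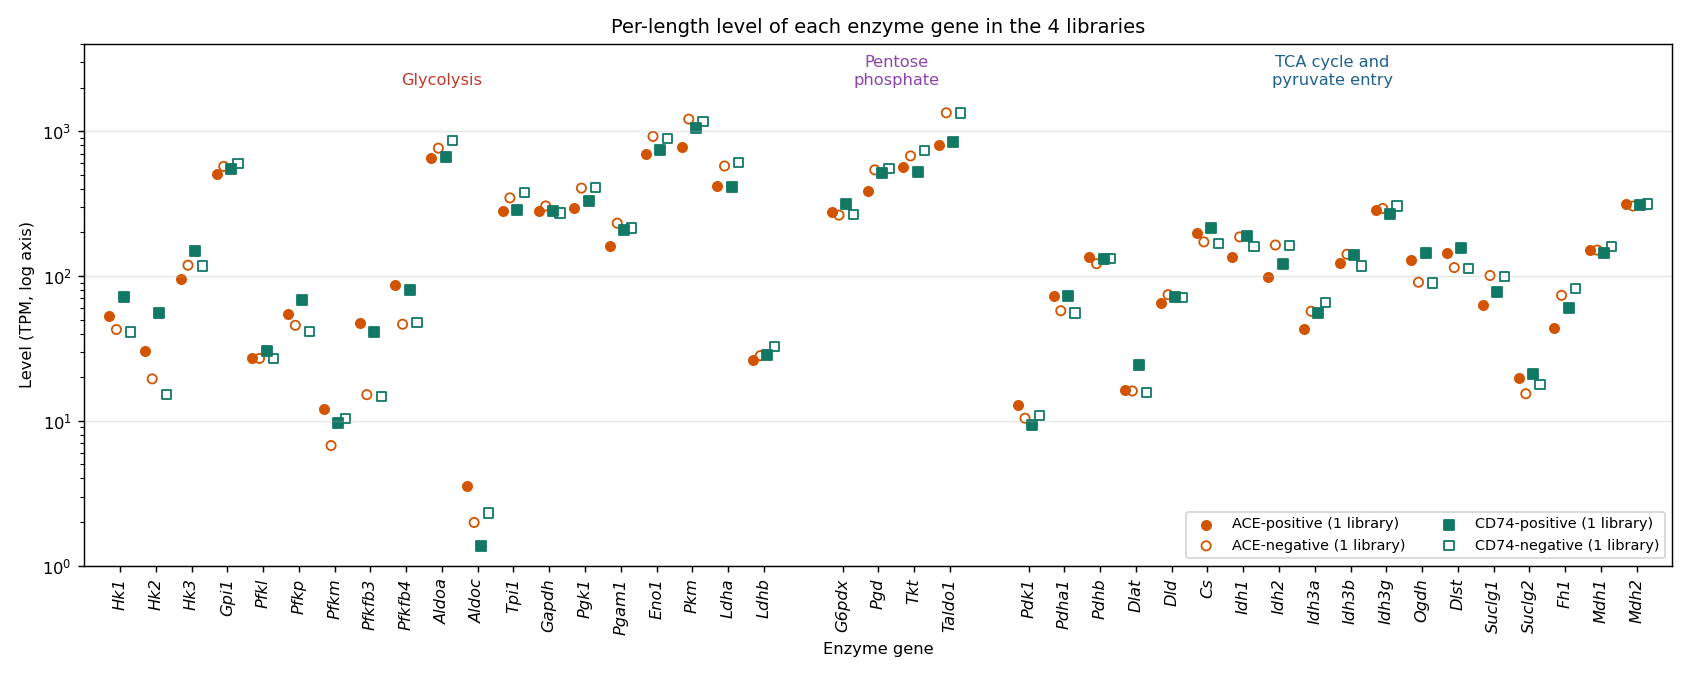
Level of each of the 41 enzyme genes in each of the 4 libraries, in TPM on a log axis, grouped by pathway. Filled symbols are the positive and open symbols the negative libraries; Taldo1 and Pkm reach about the top of the range (1339 and 1212 TPM in ACE-negative cells) and Aldoc is at the bottom.

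Within enzyme families the leading isozyme was mostly shared by the libraries, and its share differed. Hk3 made up 53.3% [51.6 to 54.9] of hexokinase TPM in ACE-positive cells and 65.6% [64.3 to 66.9] in ACE-negative cells. It made up 53.8% [52.6 to 55.1] in CD74-positive cells and 67.7% [65.9 to 69.4] in CD74-negative cells. The share of Hk2 was 17.0% in ACE-positive and 10.8% in ACE-negative cells, and 20.2% in CD74-positive and 8.72% in CD74-negative cells. Hk2 has 5513 bases and Hk3 has 3219, so the length trend can affect both shares. After length centring the log2 ratios of Hk2 and Hk3 were 0.00 and -0.62 in the ACE sort and 0.90 and -0.17 in the CD74 sort. The part of the length trend in these shares was not tested. Pfkfb3 made up 35.2% of the Pfkfb3 and Pfkfb4 signal in ACE-positive and 24.6% in ACE-negative cells, and 33.8% in CD74-positive and 23.6% in CD74-negative cells. Ldha made up between 93.4% and 95.3% of lactate dehydrogenase signal and Aldoa between 99.5% and 99.8% of aldolase signal in all 4 libraries. Idh1 exceeded Idh2 in 3 libraries, with 57.9% in ACE-positive, 53.2% in ACE-negative and 61.2% in CD74-positive cells, while the 49.7% [47.8 to 51.7] in CD74-negative cells could not be told from an equal share. Pfkp led phosphofructokinase with 58.3% in ACE-positive, 57.5% in ACE-negative, 63.1% in CD74-positive and 52.5% in CD74-negative cells. With the gene length of the deposited tables in place of the transcript length, Pfkl led in the negative libraries, with 43.0% in ACE-negative and 40.9% in CD74-negative cells, so the order of these 2 depends on the length used.

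**Figure D4:**
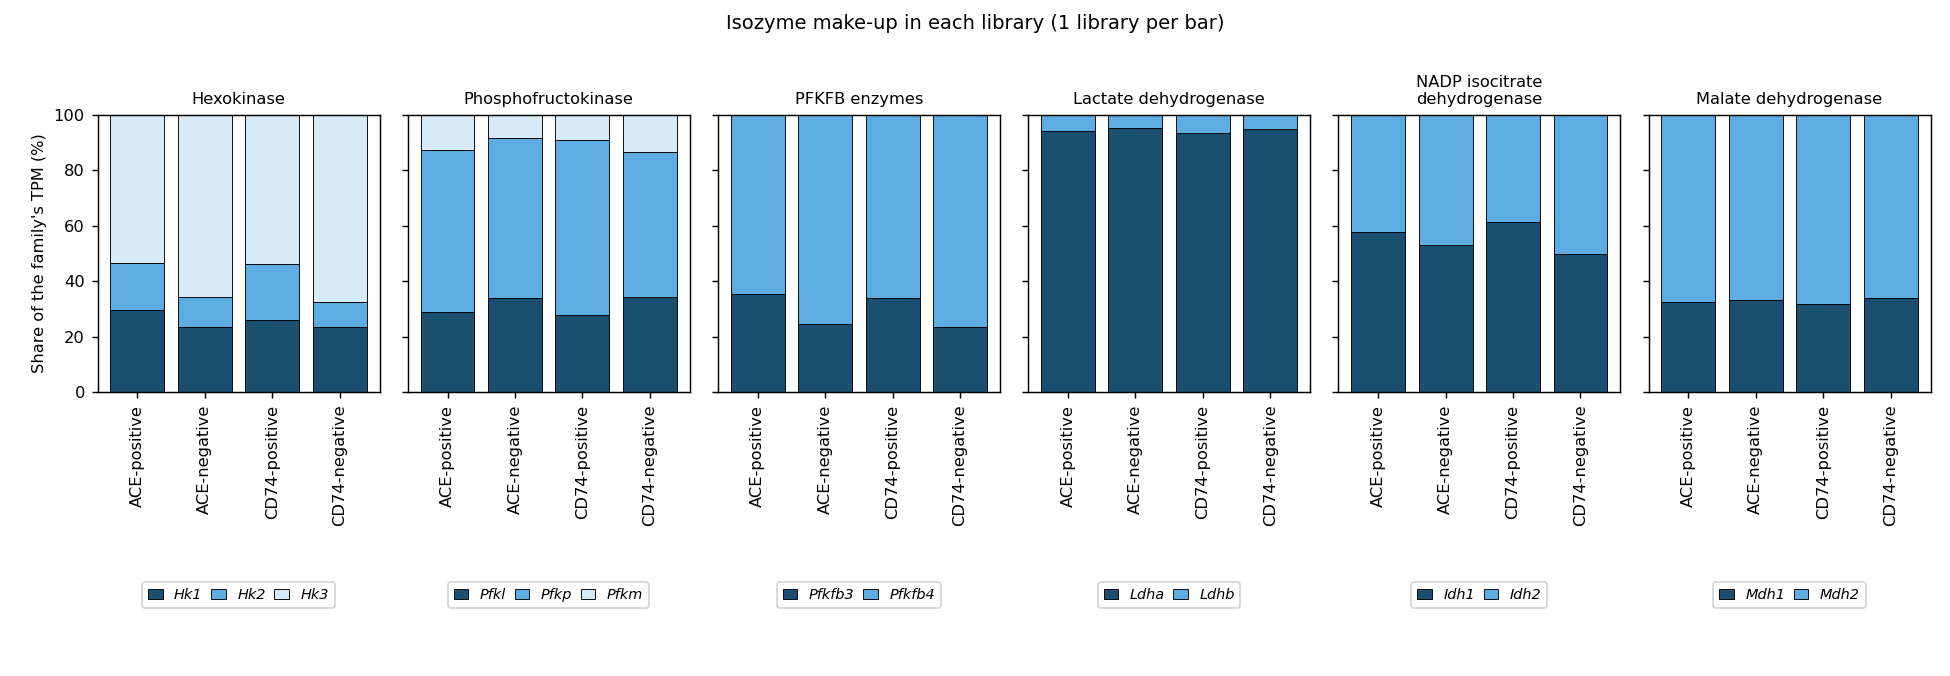
Share of each isozyme in the summed TPM of its family (%), for 6 families, 1 bar per library with the positive library left of its negative one. Hk2 takes a larger share of hexokinase in the positive libraries (17.0% and 20.2%) than in the negative ones (10.8% and 8.72%), and Ldha dominates lactate dehydrogenase in all bars.

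The other genes of these pathways were taken from lists of known enzymes, transporters and regulators. Their counts stand against the shares over all genes given above, 10.5% higher and 9.66% lower in the ACE sort and 10% higher and 8.42% lower in the CD74 sort. Of 18 tested genes of glycolysis and of glucose or lactate transport that are no members, 2 were called higher in the ACE sort and 0 lower. Eno3, the enolase of muscle, had 2478 normalised reads in ACE-positive cells, against 104 in ACE-negative cells, with 342 in CD74-positive and 259 in CD74-negative cells. Pklr, the pyruvate kinase of liver and red cells, had 115 in ACE-positive and 25.5 in ACE-negative cells, but 47.1 in CD74-positive and 99.5 in CD74-negative cells, where it was the 1 gene of 18 called lower. That call was lost after length centring. A skeletal muscle list of 8 genes, which holds Eno3 and Pfkm, summed to 2836 normalised reads in ACE-positive and 356 in ACE-negative cells, and to 577 in CD74-positive and 589 in CD74-negative cells. Eno3 alone held 2478 of the 2836 in ACE-positive cells. In the ACE sort 3 of the 8 genes passed the minimum level, Eno3 and Pfkm among them. Of the others, Acta1 had 10.2 normalised reads in ACE-positive and 0 in ACE-negative cells. Ckm had 3.06 in ACE-positive and 0 in ACE-negative cells, and Myh4 1.02 in ACE-positive and 0 in ACE-negative cells. Mylpf had 31.6 in ACE-positive and 12.8 in ACE-negative cells. The values of Tnnt3 and Pgam2, the remaining genes of the list, are not given here. The part of muscle RNA in the value of Eno3 was not tested. Of 8 erythroid genes, 5 were called higher in the ACE sort and 4 called lower in the CD74 sort, with summed levels of 10228 normalised reads in ACE-positive and 5251 in ACE-negative cells, and of 5838 in CD74-positive and 13089 in CD74-negative cells. These sums went the same way as Pklr and Pfkm in each sort, and their part in those values was not tested. Centred by length, 7 of the 8 erythroid genes were called higher in the ACE sort and 0 lower in the CD74 sort. The lactate transporter Slc16a3, the glucose transporter Slc2a6 and the ADP-dependent glucokinase Adpgk, the most abundant of this list, had log2 ratios between -0.43 and 0.38.

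Of further TCA and anaplerosis genes, 1 of 19 was called lower in the ACE sort and 1 of 18 in the CD74 sort, in both the iron-sulphur subunit of succinate dehydrogenase Sdhb. It had 1189 normalised reads in ACE-positive and 2558 in ACE-negative cells, and 923 in CD74-positive and 2243 in CD74-negative cells, and centring brought its log2 ratios to -0.41 and -0.47. Acod1, which makes itaconate from a TCA intermediate in stimulated macrophages, had 954 in ACE-positive and 542 in ACE-negative cells, and 800 in CD74-positive and 684 in CD74-negative cells, and was not called. Of the other pentose phosphate genes, 2 of 10 (Rbks, ribokinase, and Dera, deoxyribose-phosphate aldolase) were called lower in the ACE sort and 1 of 9 (Pgls, 6-phosphogluconolactonase) in the CD74 sort. Their list had medians of -0.67 and -0.73, like the 4 members, and of -0.31 and -0.36 after centring. Centred, 0 of its genes were called in either sort. In the list of further genes of pyruvate entry and exit, 0 of 9 were called in either sort as deposited. Pck2, the mitochondrial phosphoenolpyruvate carboxykinase, stood at -0.92 and -0.76 and was called lower in both sorts after centring, at -1.10 in each. Centred, 1 other gene of this list was called higher in the ACE sort and 0 in the CD74 sort. The centred medians of the list were 0.20 and -0.15.

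Among hypoxia regulators and targets, 2 of 19 genes were called higher in the ACE sort and 2 lower, while in the CD74 sort 1 of 18 was called higher and 0 lower. Epas1, which encodes the hypoxia-inducible factor HIF-2 alpha, had 176 normalised reads in ACE-positive and 8.83 in ACE-negative cells, and 84.0 in CD74-positive and 17.6 in CD74-negative cells. Hif1a had 954 in ACE-positive and 905 in ACE-negative cells, and 880 in CD74-positive and 687 in CD74-negative cells. Vhl, whose product marks both factors for degradation, had 350 in ACE-positive and 904 in ACE-negative cells, a log2 ratio of -1.37, and 417 in CD74-positive and 665 in CD74-negative cells. The other genes called in the ACE sort were P4ha1, a collagen prolyl hydroxylase named after its values were seen, which was higher (1.10), and Ndrg1, a hypoxia target, which was lower (-1.52). Among other regulators, Sirt3, a mitochondrial deacetylase, was the 1 of 12 called lower in the ACE sort, a call that was lost after length centring. Mlxip, a glucose-sensing factor, and Ppargc1b, a coactivator of mitochondrial genes, were the 2 of 13 called higher in the CD74 sort. Of 17 genes that use NADPH or handle reactive oxygen, 1 was called higher and 3 lower in the ACE sort, and 2 higher and 2 lower in the CD74 sort. Hmox1, heme oxygenase, was higher in both, with log2 ratios of 1.60 and 1.28, and Prdx1, a peroxiredoxin, was lower in both, at -1.34 and -1.13. Cat, catalase, was the other gene called higher in the CD74 sort. The other genes called lower were Sod1, superoxide dismutase, and Txn1, thioredoxin, in the ACE sort and Cyba, a subunit of the NADPH oxidase, in the CD74 sort, the last 2 named after their values were seen. These calls are as deposited. Centred by length, 1 of the 17 genes was called lower in the ACE sort and 0 in the CD74 sort, with 2 called higher in each. Cybb, the catalytic subunit of the NADPH oxidase, had 23023 in ACE-positive and 18422 in ACE-negative cells, and 17091 in CD74-positive and 14682 in CD74-negative cells, and was not called.

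As deposited, most of the 41 members lay on the same side of 0 in the 2 sorts, which share no library. As deposited, 32 members lay below 0 in both sorts, 4 above 0 in both and 5 on different sides, and over the 41 genes Pearson's r was 0.64 and Spearman's rho 0.63, as a description. Centred by length, which both sorts share as a trend, 25 lay below 0 in both and 5 above 0 in both. On different sides were 3 above 0 in the CD74 sort only and 8 above 0 in the ACE sort only. Centred, r was 0.45 and rho 0.54. The same counts and correlations over all genes were not computed, so no background stands beside them. Of 12 cell cycle genes, 9 were called lower in the ACE sort, against 9.66% of all genes, and 3 in the CD74 sort, against 8.42%. Their median log2 ratios were -1.08 and -0.85, and none of the 12 was at 0 in any library. Their summed levels were 19097 normalised reads in ACE-positive and 42405 in ACE-negative cells, and 27803 in CD74-positive and 39886 in CD74-negative cells. The summed levels of the neutrophil list given above were lower in the positive libraries too, with 2 and 3 of 13 genes called lower, against the same shares. Centred by length, 8 and 3 of the cell cycle genes were called lower. Of the neutrophil genes, 2 were then called higher (against 9.99% of all genes) and 1 lower (against 4.96%) in the ACE sort. In the CD74 sort 0 were called either way.

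Markers of further cell types also differed between the libraries. Of 5 tested T and NK cell genes, 5 were called lower in the ACE sort and 3 in the CD74 sort, with summed levels of 298 normalised reads in ACE-positive and 1227 in ACE-negative cells, and of 491 in CD74-positive and 1239 in CD74-negative cells. Of 6 dendritic cell genes, 3 were called lower in each sort, with sums of 1660 in ACE-positive and 3503 in ACE-negative cells, and of 1251 in CD74-positive and 2864 in CD74-negative cells. Basophil and mast cell genes differed in opposite directions: 3 of 6 were called lower in the ACE sort and 5 of 6 higher in the CD74 sort, where Hk2 was called higher. Their sums were 1417 in ACE-positive and 2829 in ACE-negative cells, and 7523 in CD74-positive and 1774 in CD74-negative cells. Fibroblast, progenitor and osteoblast genes, led by Col1a1, had 5 of 9 called higher in the ACE sort, where Pfkfb3 was called higher, and 1 of 9 called lower in the CD74 sort. Their sums were 31837 in ACE-positive and 10251 in ACE-negative cells, and 20161 in CD74-positive and 13782 in CD74-negative cells. In the ACE sort 3 of 4 osteoclast, 3 of 5 endothelial and mural and 3 of 6 B cell genes were called higher. Called higher in the CD74 sort were 2 of 4 osteoclast and 3 of 5 endothelial and mural genes, and of 7 B cell genes 1 was called higher and 1 lower. Centred by length, 4 and 2 T and NK cell genes and 3 and 4 dendritic cell genes were called lower in the ACE and CD74 sorts. In the ACE sort 1 basophil and mast cell gene was then called lower. In the CD74 sort 0 genes of the fibroblast, progenitor and osteoblast list and of the B cell list were then called. The part of any of these lists, or of the cell cycle and neutrophil lists, in the enzyme ratios was not tested.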

How the data were processed

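Total RNA of sorted periosteal cells was made into Illumina TruSeq libraries, per the labels' protocols. Reads were aligned with HISAT2 to GRCm38, per the submitters' processing notes. How reads were counted, with which strand setting and annotation, and which test the authors ran is not given in the sources used here. For each sort 1 table was deposited, per the file headers: its signal columns hold reads divided by size factors, and it adds a linear fold or ratio (positive over negative), the log2 of it, and p-values before and after adjustment, all the authors' own. There were 0 other columns of per-library values. The labels of the CD74 samples name their table differently, with a control set against an abbreviation that they do not explain; which column is CD74-positive was therefore read from the deposited table's name and header.

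The design had been written for counts of reads, and the deposited signal turned out to be counts divided by size factors. Within each library 100% of the values were whole multiples of 1 step, within 0.001 reads, so whole reads were recovered and used for the intervals (exact conditional binomial, Clopper-Pearson, 95%). Totals on listed genes were 10944171 reads for ACE-positive, 12561196 for ACE-negative, 13282126 for CD74-positive and 7020232 for CD74-negative cells. Reads carry no molecular identifiers. Groups of 1 library leave no residual degrees of freedom, so no p-value, SD or SE was computed and edgeR's and DESeq2's tests were not run. The tables were scaled separately and were not tested against each other.

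Where a symbol was on 2 rows (Aldoa), the row with more reads was used. Principal transcripts, their lengths and GC content were taken from GENCODE M21. Centring subtracted the median log2 ratio of all tested genes in each of 20 length classes. Sharing of sequence was searched with blastn 2.17.0 (at least 95% identity over at least 100 bases). TMM factors came from edgeR 4.0.16 in R 4.3.3, and other steps used scipy 1.17.1, pandas 2.3.3, numpy 2.4.6 and matplotlib 3.10.9 under Python 3.11.15. Calls and centring were tested on simulated data. The alternatives were TMM, plain totals, totals without the 50 most abundant genes, centring by transcript length or by GC content, pseudocounts of 10 and 0.1, no minimum level and a minimum of 500. Deposited gene lengths, and leaving out members that share sequence, were chosen after seeing the data. The members and lists were chosen with earlier results of these data known. All members are named, and a rule takes from each further list the 3 most abundant genes and, per sort, the 3 genes farthest from a log2 ratio of 0; the text gives some of these and counts the rest.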

Additional observations from a re-analysis of the deposited data

Results flagged for a closer look

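The ratio of 2 phosphofructokinase genes lay on opposite sides in the sorts, with intervals that exclude 1 in each. Pfkm, the muscle form, had a log2 ratio of 0.44 in the ACE sort (182 normalised reads in ACE-positive and 134 in ACE-negative cells) and of -0.62 in the CD74 sort (115 in CD74-positive and 177 in CD74-negative cells). After length centring these were 0.60 and -0.52. Pfkp, the platelet form, had -0.13 in the ACE sort and 0.20 in the CD74 sort, and -0.19 and 0.01 after centring. Its sign changed with the scaling or centring in both sorts. The difference between the sorts was not tested in either case, since each side is 1 library.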

How the results depend on the processing

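The pathway medians kept their sign under every alternative run, from -0.58 to -0.13 for glycolysis, -0.76 to -0.50 for the pentose phosphate pathway and -0.43 to -0.10 for the TCA cycle in the ACE sort, and from -0.60 to -0.19, -0.83 to -0.40 and -0.55 to -0.09 in the CD74 sort. The lowest of these in size for the TCA cycle, -0.0931 in the CD74 sort, came with centring by transcript length. These medians do not include the per-length scale (TPM). There the summed share of the TCA cycle was higher in CD74-positive cells (0.220%) than in CD74-negative cells (0.214%), so its lower level does not hold on every scale. Of the single members, 11 in the ACE sort and 12 in the CD74 sort changed sign under at least 1 setting, and none of those was called as deposited. Plain totals raised the median of all genes by 0.14 in the ACE sort and 0.18 in the CD74 sort, and totals without the 50 most abundant genes by 0.10 in each. No paired analysis was possible because each group holds 1 library, and for the same reason no replicate could be left out. Depth limits Aldoc, with at most 52.0 normalised reads in a library.

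Counts of called members were small and moved with the scaling or centring. In the ACE sort the call of Pkm was lost (0 of glycolysis lower) on plain totals, without the 50 most abundant genes, and with each of the 3 centrings (transcript length, GC content, deposited gene length). On plain totals and with both length centrings 0 pentose phosphate and 0 TCA members were lower. In the CD74 sort 2 glycolysis members were higher on plain totals and without the 50 most abundant genes (Hk2 and Pfkfb3), and 0 when centred by transcript length. There 0 glycolysis members were lower on plain totals, without the 50 most abundant genes and with both length centrings, and 2 without a minimum level (Ldha and Aldoc). Of the pentose phosphate genes 1 was lower on plain totals, without the 50 most abundant genes and centred by deposited gene length, and 0 when centred by transcript length. Of the TCA genes 1 was lower when centred by either length (Pdk1) or by GC content (Fh1). The cause of these moves beyond the scaling or centring itself was not tested.

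Over all genes of the ACE sort 2093 were higher without a minimum level and 387 with a minimum of 500, and 460 were lower with that minimum, 491 centred by transcript length and 547 centred by deposited gene length. In the CD74 sort 1626 were higher without a minimum, 366 with a minimum of 500 and 567 centred by transcript length. There 484 were lower on plain totals, 342 centred by transcript length, 357 with a minimum of 500 and 450 centred by deposited gene length.

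As plain shares of reads, not divided by length, glycolysis took 0.463% in ACE-positive and 0.674% in ACE-negative cells, and 0.507% in CD74-positive and 0.694% in CD74-negative cells. The pentose phosphate pathway took 0.208% in ACE-positive and 0.321% in ACE-negative cells, and 0.213% in CD74-positive and 0.342% in CD74-negative cells. The TCA cycle took 0.211% in ACE-positive and 0.251% in ACE-negative cells, and 0.219% in CD74-positive and 0.257% in CD74-negative cells. With deposited gene lengths glycolysis took 0.341%, 0.441%, 0.388% and 0.444% in ACE-positive, ACE-negative, CD74-positive and CD74-negative cells, the pentose phosphate pathway 0.155%, 0.217%, 0.167% and 0.220%, and the TCA cycle 0.163%, 0.178%, 0.179% and 0.175%.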
